A study of Homo sapiens with 12 samples.

Results

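Aminoacyl-tRNA synthetases join each amino acid to its own tRNA, and the charged tRNAs are what ribosomes use to read codons. Human cells hold separate sets of these enzymes for the cytosol and for the mitochondrion, all encoded in the nucleus, and in many cell types the genes of the cytosolic set belong to the targets of ATF4, a transcription factor that is translated when amino acids run short. Several cytosolic enzymes also sit together in the multisynthetase complex on scaffold proteins, and WARS, the tryptophanyl enzyme, is known in addition as a gene induced by interferon gamma. The genes were taken from the deposited count table by symbol, as protein-coding rows named for a synthetase of either compartment. This gave 38 of 58735 rows, of which 21 were cytosolic and 17 mitochondrial. The mitochondrial symbols end in 2, and so does that of TARSL2, which was placed with the cytosolic set. All 38 passed the low-count filter and were among the 17829 genes tested. Within the cytosolic set, GARS and KARS also supply the mitochondrial glycyl and lysyl enzymes, EPRS carries both the glutamyl and the prolyl activity, FARSA and FARSB encode the subunits of the phenylalanyl enzyme, and TARSL2 encodes a further threonyl enzyme. The table uses older symbols, so that AARS, for example, is AARS1 in current annotation and TARSL2 is TARS3.

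The samples were A549, an established human lung adenocarcinoma line, in 4 groups of 3 libraries. Control and GFI1-expressing cells were each either attached on culture-treated plates, with no treatment, or kept in suspension for 48 hours on ultra-low attachment plates, which is called floating. GFI1, a transcriptional repressor of blood cells and other lineages, was introduced into cells that lack it by a lentivirus with a human PGK promoter and a GFP marker, and GFP-positive cells were sorted for sequencing. The vector in the control libraries is not given in the labels. All groups were cultured in RPMI1640 with 10% FBS. No label says that the replicates were separate cultures, so the p-values measure the spread between these libraries, which may be technical.

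Each library held 17014188 to 20748677 counts, and the lowest count of any synthetase in any library was 66, for SARS2. GFI1 had 4 to 12 counts in the 6 control libraries, against a mean of 289.7 ± 4.39 CPM (counts scaled to the TMM-adjusted library size; SD, n = 3) in attached and 559 ± 138 CPM in floating GFI1 cells. The keratin KRT8 had a mean of 5760 ± 148 CPM (SD, n = 3) in attached control cells and 1542 ± 138 CPM in floating GFI1 cells, and CDKN2A, which A549 cells have lost, had 0 or 1 count in every library. Of 10 markers of blood, endothelial and stromal cells, 3 passed the filter. CD3E and DCN were at 0 counts in all 12 libraries, and the 10 together summed to 4.50 to 7.34 CPM in attached control, 7.97 to 10.3 in attached GFI1, 10.3 to 14.4 in floating control and 11.9 to 12.4 in floating GFI1 libraries. Within that list the endothelial genes CDH5 and VWF rose with GFI1 in both states, and the part of such markers in the results below was not tested. In bulk RNA, fewer cells that express a gene and less RNA per cell cannot be told apart.

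A match to the core of the ATF4 composite element was looked for in the windows from 250 bases before to 50 bases after each RefSeq gene start (GRCh38.p14), which were found for 30 of the 38 genes. Those without a window included DARS, LARS, TARSL2, VARS, YARS, AARS2 and VARS2. The core was spelled TGATGNAA and searched on both strands. It occurred in 7 of 16 cytosolic and 1 of 14 mitochondrial genes, a gene being counted when any of its windows held a match (39 windows for the 30 genes). Counted the same way, 4.46% of all 27305 genes with a window held one, as did 3.62% of the 35116 single windows. The 8 matches are shown because the cytosolic ones belong to the genes whose response to GFI1 is set against ATF4 further on. Capitals mark the match, each line reads along the gene's own strand, and the position is that of the first matched base counted from the gene start.
AARS (chr16:70289677-70289702, minus strand, position -187): ttctcgcagTTGCATCAgccaagtta
CARS (chr11:3057409-3057434, minus strand, position -2): gggcggcggTTGCATCAgattctagg
GARS (chr7:30594836-30594861, plus strand, position -33): acgcggcgaTTTCATCAtgctccgag
IARS (chr9:92293694-92293719, minus strand, position -13): ttcagcgcgTTGCATCAcctccgtgc
MARS (chr12:57488055-57488080, plus strand, position -4): cggttccggTTGCATCAgcgagggat
NARS (chr18:57621806-57621831, minus strand, position 15): tacgctctcTGATGCAAcgccggaat
TARS (chr5:33440958-33440983, plus strand, position 3): gcctttcgaTTGCATCAgctggtcca
YARS2 (chr12:32756078-32756103, minus strand, position -197): ccacactgcTGATGGAAaaattaagt
All 7 cytosolic matches fell in genes of the list of ATF4 targets (7 of its 10 genes that had a window), and none of the 6 other cytosolic genes with a window had one. The list holds genes already known as ATF4 targets, so this split is not an independent result. Such a match is a description of the sequence and was not tested for binding.

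In attached control cells, the length-adjusted levels spread over a wide range. AARS, the alanyl enzyme, was highest at 89.6 ± 4.14 CPM per kb (SD, n = 3), followed by the mitochondrial isoleucyl enzyme IARS2 at 67.8 ± 1.28 CPM per kb. NARS, IARS and KARS came next at 50.9 ± 0.707, 50.8 ± 1.41 and 50.6 ± 1.32 CPM per kb, and these neighbours did not differ beyond their spread. The lowest were SARS2 at 1.66 ± 0.391, WARS2 at 1.97 ± 0.0704, TARSL2 at 2.92 ± 0.240 and FARS2 at 2.92 ± 0.0439 CPM per kb. Of the 19 highest genes, IARS2 was the only mitochondrial one. For the 13 amino acids with 1 gene in each set, the cytosolic gene stood above its mitochondrial counterpart in 11, by up to 16.4-fold for alanine. The exceptions were histidine at 0.835-fold and isoleucine at 0.749-fold. Both came with the division by gene length, which is 7853 bases for HARS and 3736 for HARS2, and 7401 for IARS and 4165 for IARS2. In CPM, HARS had 95.8 ± 0.892 and HARS2 54.6 ± 3.30, and IARS 376 ± 10.4 and IARS2 282 ± 5.32 (SD, n = 3). Ranks and ratios between genes thus depend on the deposited lengths. In floating GFI1 cells AARS and IARS2 were still the highest, at 53.7 ± 3.28 and 44.3 ± 1.5 CPM per kb, while YARS had moved from rank 18 to rank 26 of the 38.

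The sums over each set gave the first view of the 4 groups. The 21 cytosolic genes summed to 3514 ± 51.4 CPM (SD, n = 3) in attached control cells, 2489 ± 3.00 in attached GFI1 cells, 2912 ± 46.2 in floating control cells and 2213 ± 44.1 in floating GFI1 cells. The 17 mitochondrial genes summed to 860.7 ± 9.66, 651 ± 3.87, 792 ± 8.84 and 594 ± 18.4 CPM in the same order. GFI1 thus went with a change of -29.2% in the cytosolic and -24.4% in the mitochondrial sum in attached cells, and of -24.0% and -24.9% in floating cells. Suspension went with -17.1% and -8.01% in control cells and with -11.1% and -8.69% in GFI1 cells. In each of these 8 cases the libraries of the lower group all lay below those of the higher group. The sums use TMM scaling, with factors of 0.940 to 0.971 in control and 1.04 to 1.06 in GFI1 libraries. With scaling by library size alone the GFI1 falls in these sums would be smaller, and the sums were not computed that way.

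**Figure D1:**
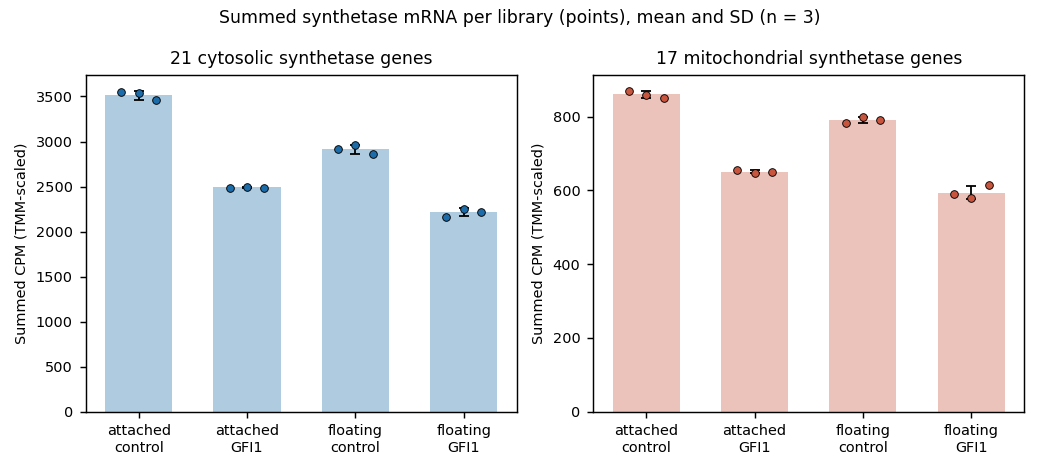
Summed CPM of the cytosolic (left) and mitochondrial (right) synthetase genes in the 4 groups. Points are libraries, bars are group means and error bars are SD (n = 3); the attached control libraries are highest and the floating GFI1 libraries lowest in both panels.

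The first comparison asked how GFI1 expression changed the synthetases in attached cells. Of the 21 cytosolic genes, 19 fell and none rose (edgeR's quasi-likelihood test, Benjamini-Hochberg adjusted p of 0.05 or less), and of the 17 mitochondrial genes 10 fell and none rose. At an unadjusted p below 0.05, and by DESeq2, 0 genes of either set rose as well. Over all genes tested, 32.8% fell and 29.5% rose. Among the 11292 genes with a mean level at or above that of the lowest synthetase, 41.8% fell and 31.8% rose. The median log2 fold change was -0.51 over the cytosolic and -0.23 over the mitochondrial genes, beside -0.0066 over all genes tested.

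YARS, the tyrosyl enzyme (ENSG00000134684, chr1:32775237-32818153, minus strand, hg38), fell most among the cytosolic genes. YARS had 158, 156 and 157 CPM in attached control and 74.1, 74.0 and 77.0 CPM in attached GFI1 libraries. The groups were far apart, with a log2 fold change of -1.06 ± 0.048 (SE, adjusted p = 4.06e-16). NARS2, the mitochondrial asparaginyl enzyme (chr11:78435961-78574874, minus strand, hg38), fell as far. NARS2 had 32.0, 33.4 and 30.6 CPM in attached control and 16.7, 14.7 and 14.4 CPM in attached GFI1 libraries. Its log2 fold change was -1.07 ± 0.075 (SE, adjusted p = 3.93e-12). MARS2, the mitochondrial methionyl enzyme that charges the tRNA for initiation and elongation there, followed. MARS2 had 18.3, 17.5 and 20.2 CPM in attached control and 10.5, 12.5 and 10.8 CPM in attached GFI1 libraries. The groups did not overlap and the log2 fold change was -0.72 ± 0.093 (SE, adjusted p = 2.49e-07). IARS, the cytosolic isoleucyl enzyme and a part of the multisynthetase complex, was next. IARS had 386, 375 and 366 CPM in attached control and 239, 241 and 234 CPM in attached GFI1 libraries. Again no GFI1 library reached a control library, and the log2 fold change was -0.66 ± 0.041 (SE, adjusted p = 3.94e-13).

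The other cytosolic enzymes lay mostly between -0.65 and -0.25. VARS, the valyl enzyme, had a log2 fold change of -0.65 ± 0.044 (SE, adjusted p = 2.15e-12), KARS -0.61 ± 0.040 (SE, adjusted p = 8.37e-13), GARS -0.61 ± 0.054 (SE, adjusted p = 3.87e-10), AARS -0.59 ± 0.051 (SE, adjusted p = 1.62e-10), and MARS, the cytosolic methionyl enzyme, -0.59 ± 0.041 (SE, adjusted p = 3.89e-12). LARS and QARS, the leucyl and glutaminyl enzymes of the complex, fell by 0.25 each on the log2 scale. HARS, the histidyl enzyme, had a log2 fold change of -0.013 ± 0.045 (SE, adjusted p = 0.821) and overlapping groups. With scaling by library size alone, in place of trimmed-mean (TMM) scaling, all genes together took a median of 0.14 in this comparison, and the value of HARS turned to 0.13 and passed the test. The falls of QARS, EARS2, HARS2, LARS2 and WARS did not pass under that scaling. TARSL2 had 0.15 ± 0.11 (SE, adjusted p = 0.259), with overlapping groups as well. In the mitochondrial set, IARS2 fell by 0.60 on the log2 scale, CARS2 by 0.54, YARS2 by 0.45 and FARS2 by 0.44. AARS2, PARS2, RARS2, SARS2, TARS2, VARS2 and WARS2 did not pass the test, with values from -0.26 to 0.096.

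In floating cells, 17 of the 21 cytosolic genes fell with GFI1 and 1 rose, while 12 of the 17 mitochondrial genes fell and none rose (0 also at an unadjusted p below 0.05 and by DESeq2). Over all genes tested, 31.1% fell and 29.3% rose, and among the genes at or above the lowest synthetase's level 39.3% fell and 32.5% rose. The medians were -0.40 for the cytosolic and -0.34 for the mitochondrial genes, beside 0.011 over all genes. The attached and floating comparisons share no library, but both came from the same fit over all 4 groups and are not fully independent. Of the cytosolic genes, 17 fell in both states, 2 fell only in the attached test (CARS and WARS, whose difference between states did not pass, as given further on), and HARS passed in neither. Of the mitochondrial genes, 10 fell in both, PARS2 and VARS2 passed only in floating cells, and 5 passed in neither.

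**Figure D2:**
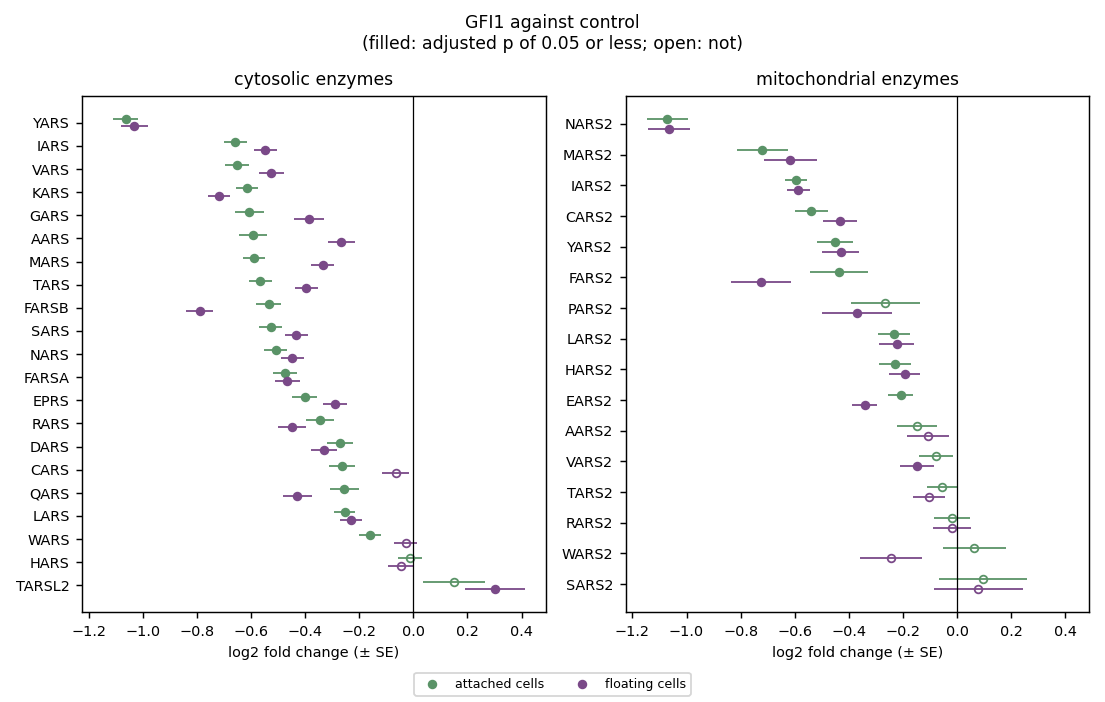
Log2 fold change with GFI1 (± SE) of cytosolic (left) and mitochondrial (right) synthetases in attached (green) and floating (purple) cells, ordered by the attached value. Filled points passed an adjusted p of 0.05; YARS and NARS2 stand apart near -1.1 in both states, and TARSL2 alone is a filled point above 0.

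YARS and NARS2 again fell most. YARS had 107, 111 and 107 CPM in floating control and 49.7, 58.0 and 51.2 CPM in floating GFI1 libraries. NARS2 had 27.6, 28.4 and 29.4 CPM in floating control and 13.7, 12.5 and 14.6 CPM in floating GFI1 libraries. Both pairs of groups were well apart, with log2 fold changes of -1.03 ± 0.050 (SE, adjusted p = 2.35e-15) for YARS and -1.06 ± 0.078 (SE, adjusted p = 9.27e-12) for NARS2. FARSB, the beta subunit of the phenylalanyl enzyme, came next. FARSB had 70.1, 74.5 and 72.0 CPM in floating control and 40.3, 41.7 and 43.3 CPM in floating GFI1 libraries. Its log2 fold change was -0.79 ± 0.050 (SE, adjusted p = 4.07e-13). FARS2, the separate single-chain phenylalanyl enzyme of the mitochondrion, was near it. FARS2 had 15.7, 14.7 and 13.9 CPM in floating control and 8.15, 7.98 and 10.5 CPM in floating GFI1 libraries. Its groups did not overlap, and its log2 fold change was -0.73 ± 0.11 (SE, adjusted p = 3.38e-06). KARS, which supplies the lysyl enzyme to both compartments and joins the complex, lay close behind. KARS had 188, 185 and 182 CPM in floating control and 111, 115 and 112 CPM in floating GFI1 libraries. Its log2 fold change was -0.72 ± 0.041 (SE, adjusted p = 5.35e-14). In attached cells KARS had 212, 202 and 204 CPM in attached control and 132, 133 and 138 CPM in attached GFI1 libraries, which were as clearly apart.

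TARSL2 (chr15:101653598-101724604, minus strand, hg38) was the synthetase that rose. TARSL2 had 15.8, 12.8 and 16.3 CPM in floating control and 19.7, 19.7 and 16.1 CPM in floating GFI1 libraries. The highest control library lay above the lowest GFI1 library, so the groups overlapped, and the log2 fold change was 0.30 ± 0.11 (SE, adjusted p = 0.0224). The call was lost without floating control replicate 2 (0.20, adjusted p = 0.153), without floating GFI1 replicate 1 (0.25, adjusted p = 0.0906) and without floating GFI1 replicate 2 (0.26, adjusted p = 0.0534). Per kb, TARSL2 amounted to 0.0715 ± 0.00570 of TARS, the main threonyl gene, in attached control cells, 0.117 ± 0.0183 in attached GFI1 cells, 0.104 ± 0.0165 in floating control cells and 0.169 ± 0.0207 in floating GFI1 cells (SD, n = 3). Of the mitochondrial calls in floating cells, 3 were lost without at least 1 library. HARS2 lost it without floating control replicate 1 (adjusted p = 0.0577) or floating GFI1 replicate 2 (adjusted p = 0.057). PARS2 lost it without floating control replicate 1 (adjusted p = 0.125) or floating GFI1 replicate 1 (adjusted p = 0.0781). VARS2, at an adjusted p of 0.047 with all libraries, lost it without any of 7 libraries. The other 26 calls of this comparison held without each library in turn, as did all 29 of the attached comparison. With scaling by library size alone, the floating falls of HARS2, LARS2, PARS2 and VARS2 did not pass.

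The plot of every library shows how even these shifts were within groups.

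**Figure D3:**
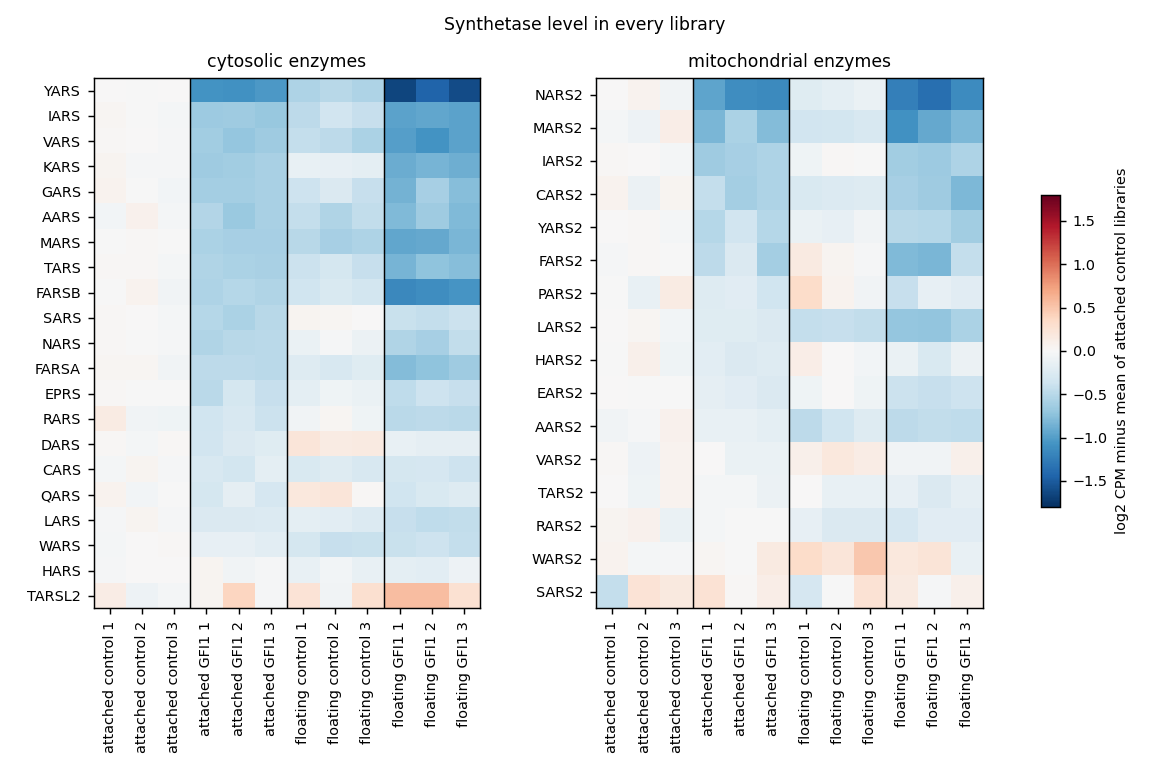
Heat map of log2 CPM minus the mean of the attached control libraries, with 1 row for each synthetase gene shown and 1 column for each library; blue is lower and red higher. The attached GFI1 and floating GFI1 columns are blue for most genes, deepest for YARS and NARS2, and the 3 columns of a group differ little beside the shifts between groups.

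Suspension was the second factor. In control cells, 48 hours of suspension went with a fall of 14 cytosolic genes and a rise of 2, and with a fall of 6 mitochondrial genes and a rise of 1. Over all genes tested, 20.6% fell and 19.6% rose, and among genes at or above the lowest synthetase's level 29.2% fell and 24.1% rose. The medians were -0.25 for cytosolic and -0.085 for mitochondrial genes, beside 0.011 over all genes.

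MARS fell most. MARS had 227, 232 and 229 CPM in attached control and 162, 151 and 156 CPM in floating control libraries. The groups did not overlap, with a log2 fold change of -0.55 ± 0.042 (SE, adjusted p = 7.07e-11). MARS shares 13.3% of its exonic bases with other genes in GENCODE v44, among them DDIT3 on the opposite strand, and the strand setting of the counting is not given in the sources used here. DDIT3 had 86 to 200 counts in a library, MARS 2184 to 4280. YARS followed with the attached and floating control values given above and a log2 fold change of -0.53 ± 0.047 (SE, adjusted p = 1.09e-09). VARS was next. VARS had 163, 161 and 159 CPM in attached control and 120.0, 116 and 109 CPM in floating control libraries. Its log2 fold change was -0.48 ± 0.044 (SE, adjusted p = 2.51e-09). AARS was near it. AARS had 390.2, 425 and 395 CPM in attached control and 299, 276 and 296 CPM in floating control libraries. Its log2 fold change was -0.47 ± 0.051 (SE, adjusted p = 3.11e-08), with no overlap.

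The rises were smaller. DARS, the aspartyl enzyme of the complex, rose. DARS had 63.4, 60.8 and 63.2 CPM in attached control and 72.3, 69.4 and 70.0 CPM in floating control libraries. Every floating library was above every attached library, and the log2 fold change was 0.18 ± 0.047 (SE, adjusted p = 0.0036). QARS had 142, 132 and 136 CPM in attached control and 156, 159 and 139 CPM in floating control libraries. Its groups overlapped, the log2 fold change was 0.14 ± 0.053 (SE, adjusted p = 0.032), and the call was lost without attached control replicate 2 (adjusted p = 0.13) or 3 (adjusted p = 0.0823) and without floating control replicate 1 (adjusted p = 0.12) or 2 (adjusted p = 0.168). WARS2, the mitochondrial tryptophanyl enzyme, was the mitochondrial gene that rose. WARS2 had 7.91, 7.43 and 7.45 CPM in attached control and 9.53, 8.84 and 10.6 CPM in floating control libraries. The groups did not overlap, with a log2 fold change of 0.35 ± 0.12 (SE, adjusted p = 0.0189), and the call was lost without attached control replicate 2 (adjusted p = 0.058) or 3 (adjusted p = 0.0552) and without floating control replicate 3 (adjusted p = 0.11). SARS, NARS, RARS, HARS and TARSL2 did not pass, with values from -0.11 to 0.16. The fall of EPRS by 0.12 on the log2 scale was lost without any of 5 libraries, and that of RARS2 by 0.22 was lost without attached control replicate 2 (adjusted p = 0.0669). The other mitochondrial falls included LARS2 by 0.43, AARS2 by 0.35, MARS2 by 0.32 and CARS2 by 0.25.

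In GFI1 cells, suspension went with a fall of 12 cytosolic genes and a rise of 2, and with a fall of 5 mitochondrial genes and no rise (0 also at an unadjusted p below 0.05 and by DESeq2). Over all genes tested, 16.3% fell and 15.0% rose, and among genes at or above the lowest synthetase's level 23.9% fell and 19.1% rose. The medians were -0.15 for both sets, beside 0.0017 over all genes.

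**Figure D4:**
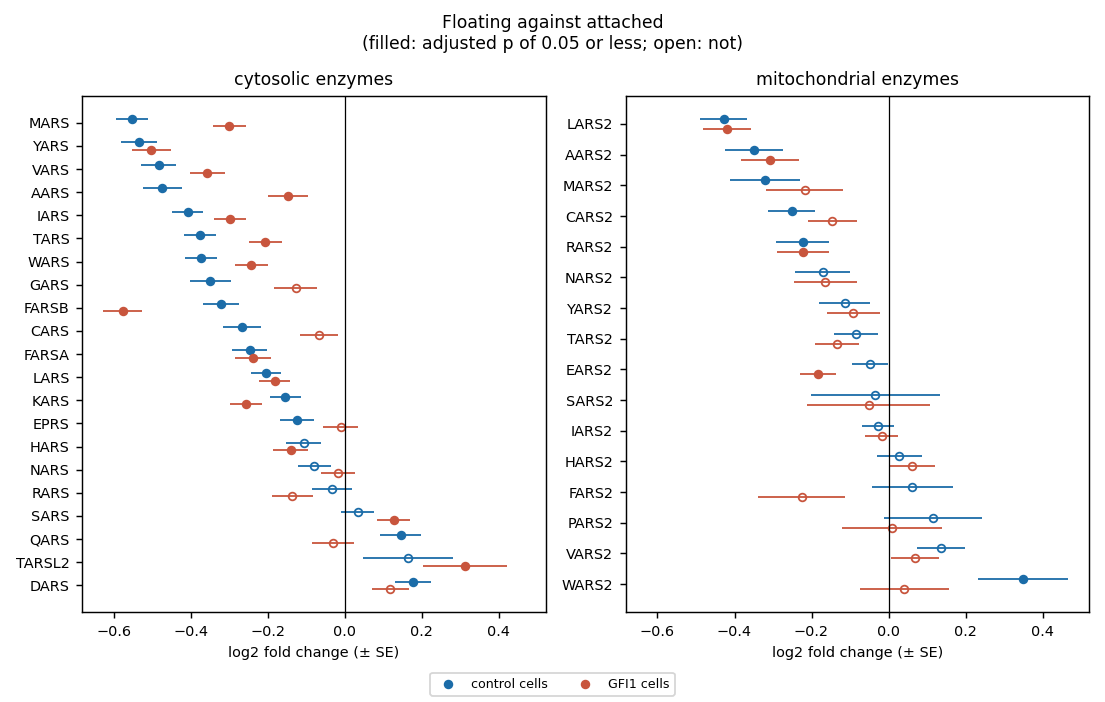
Log2 fold change with suspension (± SE) of cytosolic (left) and mitochondrial (right) synthetases in control (blue) and GFI1 (red) cells, ordered by the control value. Filled points passed an adjusted p of 0.05; for MARS and AARS the GFI1 value is nearer to 0 than the control value, and for FARSB it is farther from 0.

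FARSB fell most. FARSB had 61.5, 63.0 and 62.3 CPM in attached GFI1 and 40.3, 41.7 and 43.3 CPM in floating GFI1 libraries. Its log2 fold change was -0.58 ± 0.050 (SE, adjusted p = 1.63e-09). YARS went from the attached to the floating GFI1 values given above with a log2 fold change of -0.50 ± 0.051 (SE, adjusted p = 2.61e-08). LARS2, the mitochondrial leucyl enzyme, also fell. LARS2 had 31.2, 31.0 and 30.1 CPM in attached GFI1 and 22.4, 22.1 and 24.4 CPM in floating GFI1 libraries. The groups did not overlap, and the log2 fold change was -0.42 ± 0.062 (SE, adjusted p = 7.84e-06). In control cells the same gene had 36.4, 37.1 and 34.8 CPM in attached control and 26.9, 27.1 and 26.5 CPM in floating control libraries.

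TARSL2 and SARS, the seryl enzyme, rose in GFI1 cells on suspension. TARSL2 had 13.8, 17.5 and 13.1 CPM in attached GFI1 and 19.7, 19.7 and 16.1 CPM in floating GFI1 libraries. SARS had 67.1, 64.2 and 67.4 CPM in attached GFI1 and 72.6, 71.2 and 73.1 CPM in floating GFI1 libraries. TARSL2 overlapped between the groups and SARS did not. The log2 fold changes were 0.31 ± 0.11 (SE, adjusted p = 0.0303) and 0.13 ± 0.043 (SE, adjusted p = 0.0276). The TARSL2 call was lost without attached GFI1 replicate 1 (adjusted p = 0.117) or 3 (adjusted p = 0.191) and without floating GFI1 replicate 1 (adjusted p = 0.123) or 2 (adjusted p = 0.104), and the SARS call was lost without any of 5 libraries. Among the falls, AARS at -0.15 lost its call without any of 4 GFI1 libraries, HARS at -0.14 without attached GFI1 replicate 1 (adjusted p = 0.0944) or floating GFI1 replicate 1 (adjusted p = 0.0701), and RARS2 at -0.22 without floating GFI1 replicate 1 (adjusted p = 0.0691). GARS, CARS, EPRS, NARS, QARS, RARS and DARS did not pass, with values from -0.14 to 0.12. RARS, the arginyl enzyme at -0.14, had an adjusted p of 0.0509 and passed as a fall when any 1 of 4 libraries was left out, with a replicate block (adjusted p = 0.0472) and with DESeq2's size factors in edgeR (adjusted p = 0.0437). GARS, whose gene makes the glycyl enzyme of both compartments, had the largest of its own 4 group SDs in the floating GFI1 group (10.0 CPM). GARS had 121, 121 and 124 CPM in attached GFI1 and 103, 122 and 109 CPM in floating GFI1 libraries. Without floating GFI1 replicate 2, its log2 fold change was -0.21 and passed (adjusted p = 0.00167).

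Whether the GFI1 effect itself differed between floating and attached cells was tested by the interaction term. Over all genes tested, 4.76% had a higher and 6.01% a lower value in floating than in attached cells, and among genes at or above the lowest synthetase's level 6.87% and 8.60%. Of the cytosolic genes 2 had a higher and 1 a lower value, and of the 17 mitochondrial genes none passed at an adjusted p of 0.05 with edgeR or with DESeq2, and 0 of them had an unadjusted p below 0.05. AARS had 390.2, 425 and 395 CPM in attached control and 281, 253 and 269 CPM in attached GFI1 cells, but 299, 276 and 296 CPM in floating control and 233, 258 and 233 CPM in floating GFI1 cells. The GFI1 effect was thus -0.59 ± 0.051 (SE, adjusted p = 1.62e-10) in attached and -0.27 ± 0.051 (SE, adjusted p = 6.99e-05) in floating cells, and the difference was 0.33 ± 0.072 (SE, adjusted p = 0.00312). MARS showed the same direction. MARS had 154, 152 and 152 CPM in attached GFI1 and 120.3, 122 and 129.7 CPM in floating GFI1 libraries. Its GFI1 effect was -0.34 ± 0.043 (SE, adjusted p = 1.87e-07) in floating cells, and the difference to attached cells was 0.25 ± 0.059 (SE, adjusted p = 0.0055). FARSB went the other way, with a difference of -0.25 ± 0.068 (SE, adjusted p = 0.0151). FARSB had 89.9, 94.2 and 86.7 CPM in attached control and 70.1, 74.5 and 72.0 CPM in floating control libraries. The FARSB call was lost without attached control replicate 3 (-0.23, adjusted p = 0.0516) and with no low-count filter (-0.24, adjusted p = 0.0605), and those of AARS and MARS held without each library in turn. GARS had a difference of 0.22 ± 0.077 (SE, adjusted p = 0.0672) and CARS of 0.20 ± 0.070 (SE, adjusted p = 0.0688), and WARS of 0.13 ± 0.060 (SE, adjusted p = 0.182), none of which passed.

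**Figure D5:**
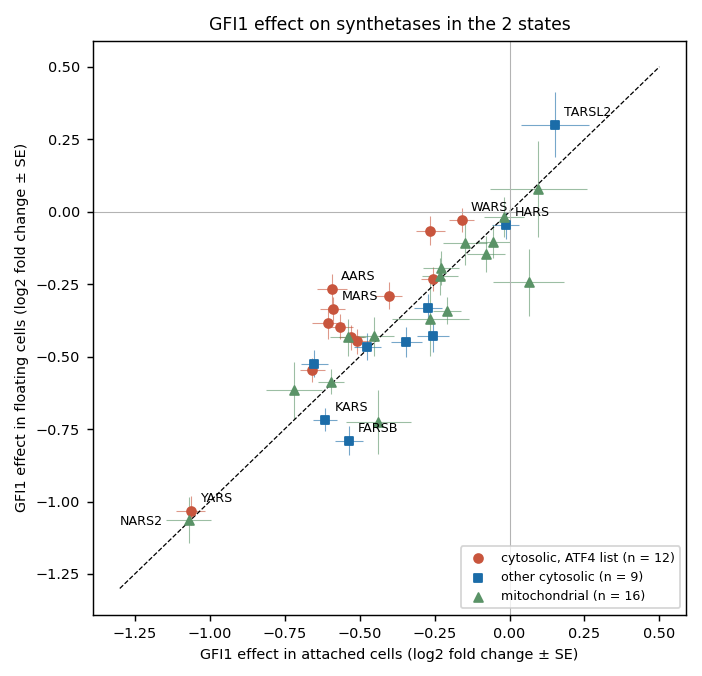
GFI1 effect on synthetases in floating cells against that in attached cells (log2 fold change ± SE on both axes), with circles for cytosolic genes of the ATF4 list, squares for other cytosolic genes and triangles for mitochondrial genes. The dashed line marks equal effects; AARS and MARS lie above it and FARSB below it, and these were the 3 genes for which the difference passed the test.

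The subunits of the phenylalanyl enzyme can be set against each other within a library. Per kb, FARSB amounted to 0.614 ± 0.0147 of FARSA in attached control cells, 0.589 ± 0.00789 in attached GFI1 cells, 0.584 ± 0.0306 in floating control cells and 0.466 ± 0.00576 in floating GFI1 cells (SD, n = 3). The floating GFI1 libraries lay at 0.460 to 0.472 and all others at 0.560 to 0.629. FARSA itself, the alpha subunit, fell by 0.47 on the log2 scale with GFI1 in both states, and its interaction value was 0.0081 ± 0.065 (SE, adjusted p = 0.964).

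Cytosolic and mitochondrial genes were also compared as sets. The mean log2 CPM per kb of the 21 cytosolic genes exceeded that of the 17 mitochondrial genes by 1.88 ± 0.036 (SD, n = 3) in attached control cells, 1.76 ± 0.028 in attached GFI1 cells, 1.77 ± 0.028 in floating control cells and 1.74 ± 0.042 in floating GFI1 cells. The gap was therefore smaller by 0.13 with GFI1 in attached cells and by 0.11 with suspension in control cells, beside a pooled SD of 0.034 between libraries. In floating cells GFI1 changed it by -0.026 and in GFI1 cells suspension changed it by -0.012, both within that SD. No test was run on this gap.

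Matched by amino acid, the picture was mixed. Among the 13 amino acids with 1 gene of each kind, the cytosolic gene had the lower log2 fold change with GFI1 in 8 in attached and in 6 in floating cells, and the median difference was -0.063 and 0.039. The differences in attached cells ran from -0.62 ± 0.17 (SE) for serine, with SARS at -0.53 and SARS2 at 0.096, to 0.56 ± 0.087 for asparagine, with NARS at -0.51 and NARS2 at -1.07. Tyrosine and valine also had the lower value on the cytosolic side, by -0.61 ± 0.082 and -0.57 ± 0.077. Cysteine and histidine had it on the mitochondrial side, with differences of 0.27 ± 0.078 and 0.22 ± 0.074. With suspension in control cells the lowest difference was -0.72 ± 0.12 for tryptophan, where WARS fell and WARS2 rose. For histidine, HARS and HARS2 lie head to head and share 8.46% and 6.99% of their exonic bases with neighbouring genes in GENCODE v44. SARS2 and VARS2 share 48.2% and 63.0% with same-strand read-through genes, so their values are uncertain. YARS2 shares 18.1% with an opposite-strand gene. The SEs treat both genes of a pair as independent.

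The 8 synthetases of the multisynthetase complex (DARS, EPRS, IARS, KARS, LARS, MARS, QARS and RARS) all fell with GFI1 in both states, with medians of -0.37 in attached and -0.38 in floating cells. The 13 other cytosolic genes had medians of -0.53 and -0.40, with 11 and 9 falling, or 84.6% and 69.2%. Of the genes at or above the lowest synthetase's level, 41.8% fell with GFI1 in attached and 39.3% in floating cells. The complex is held together by 3 scaffold proteins, and all 3 fell in both states. AIMP2 had a log2 fold change of -0.74 ± 0.060 (SE) in attached and -0.71 ± 0.064 in floating cells, AIMP1 of -0.33 ± 0.050 and -0.35 ± 0.051, and EEF1E1 of -0.41 ± 0.10 and -0.33 ± 0.11. With suspension, AIMP2 fell in control (-0.39) and in GFI1 cells (-0.36) and the other scaffolds did not pass. In the complex, suspension went with 5 falls and 2 rises in control cells and with 4 falls in GFI1 cells. By structural class of the catalytic domain, 15 of 18 class I genes and 13 of 19 class II genes fell with GFI1 in attached cells, and 14 of 18 and 14 of 19 in floating cells. These were 83.3% and 68.4% in attached cells, beside 41.8% of the genes at that level. In floating cells they were 77.8% and 73.7% beside 39.3%. EPRS, which carries a domain of each class, was left out.

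The cytosolic genes known as ATF4 targets were followed as a list of 12. They were AARS, CARS, EPRS, GARS, IARS, LARS, MARS, NARS, SARS, TARS, WARS and YARS. With GFI1 all 12 fell in attached cells (median -0.55) and 10 in floating cells (median -0.36), and the 9 other cytosolic genes had 7 falls in each state (medians -0.34 and -0.45). That was 83.3% of the list in floating cells and 77.8% of the others in each state. Of the genes at or above the lowest synthetase's level, 41.8% fell in attached and 39.3% in floating cells. Suspension went with 10 falls of the 12 in control cells (median -0.36) and with 7 falls and 1 rise in GFI1 cells (median -0.17). That was 83.3% lower in control cells, beside 29.2% of the genes at that level. In GFI1 cells it was 58.3% lower and 8.33% higher beside 23.9% and 19.1%. The interaction value was above 0 for each of the 12, from 0.022 for LARS to 0.33 for AARS with a median of 0.12, and 2 of them, AARS and MARS, passed the test. Its median over the other 9 was -0.059, with 1 passing as lower. The calls were 16.7% higher of the 12 and 11.1% lower of the 9. Of the genes at that level, 6.87% were higher and 8.60% lower. The list was assembled with earlier results of these data known, so these counts describe it only. The 7 genes with the element printed above had interaction values from 0.062 (NARS) to 0.33 (AARS), and YARS2, the mitochondrial gene with a match, had 0.022.

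ATF4 itself fell with GFI1, from 249.7 ± 10.9 to 189 ± 3.63 CPM (SD, n = 3) in attached cells and from 244 ± 6.54 to 209 ± 17.3 CPM in floating cells, with log2 fold changes of -0.40 ± 0.050 (SE) and -0.22 ± 0.050. Of 24 ATF4 targets outside the family, 16 fell and 6 rose in attached cells and 10 fell and 7 rose in floating cells. In attached cells that was 66.7% lower and 25.0% higher, beside 41.8% and 31.8% of the genes at or above the lowest synthetase's level. In floating cells it was 41.7% lower and 29.2% higher, near the 39.3% and 32.5% of those genes. The falls with the lowest adjusted p in attached cells were those of the serine and glycine synthesis genes PSAT1 (-1.66), PHGDH (-1.75) and SHMT2 (-1.01), and the rises those of ATF3 (1.64), CEBPB (0.65) and SLC38A2 (0.43). Suspension went with 9 falls and 7 rises in control cells and with 7 falls and 9 rises in GFI1 cells, or 37.5% lower and 29.2% higher beside 29.2% and 24.1% of the genes at that level, and 29.2% lower and 37.5% higher beside 23.9% and 19.1%. In the interaction 6 of the 24 were higher and 5 lower, or 25.0% and 20.8% beside 6.87% and 8.60% of the genes at that level. Among the amino acid transporters of the list, SLC7A5 had an interaction value of 0.66, SLC3A2 of 0.35 and SLC7A1 of 0.36, all higher. SLC38A2 had -0.48, lower, and the value of SLC7A11, also on the list, is not given here.

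WARS was set beside the genes induced by interferon gamma. It shares 10.6% of its exonic bases with opposite-strand genes in GENCODE v44, among them WDR25, and the strand setting is not given. WARS had 127, 131 and 132 CPM in attached control and 118, 117 and 115 CPM in attached GFI1 libraries. WARS had 105, 98.1 and 98.5 CPM in floating control and 98.2, 101 and 96.6 CPM in floating GFI1 libraries. WARS fell slightly in attached cells, with no overlap and a log2 fold change of -0.16 ± 0.042 (SE, adjusted p = 0.00172), and in floating cells it had -0.028 ± 0.043 (SE, adjusted p = 0.588) with overlapping groups. With scaling by library size alone the fall of WARS in attached cells was lost (-0.013, adjusted p = 0.800), and the floating value turned to 0.10 and passed. With suspension WARS fell in control cells (-0.37 ± 0.042 (SE, adjusted p = 8.24e-08)) and in GFI1 cells (-0.24 ± 0.042 (SE, adjusted p = 6.52e-05)). Of 19 interferon gamma genes, 15 passed the low-count filter, and GBP5, CXCL9, CXCL10 and CXCL11 did not. Of the 15 tested, 13 rose and 2 fell with GFI1 in each state, with medians of 1.65 and 1.74. That was 86.7% higher and 13.3% lower in each. The largest rise in attached cells was 9.41. A gene near the floor in control cells can pass the filter only by rising, so these shares and medians lean upward. Of the genes at or above the lowest synthetase's level, 31.8% and 32.5% rose and 41.8% and 39.3% fell. IRF1, the transcription factor of the interferon gamma response, had log2 fold changes of 3.11 and 2.90. The immunoproteasome genes PSMB8 and PSMB10 had 2.17 and 2.91 in attached cells, whereas GBP2 had -2.22. Suspension went with 4 rises and 3 falls in control cells and 1 rise and 6 falls in GFI1 cells, and 2 had a lower interaction value. The shares in control cells, 26.7% higher and 20% lower, were near those of the genes at or above the lowest synthetase's level (24.1% and 29.2%). In GFI1 cells they were 6.67% and 40.0% beside 19.1% and 23.9%. In the interaction 13.3% were lower, beside 8.60%. The WARS window held a match to the interferon-stimulated element core GAAANNGAA at -55 and to the gamma-activated motif TTCNNNGAA at -142 from the RefSeq start (GRCh38.p14), shown with the match in capitals on the gene's strand.
WARS (chr14:100375472-100375498, minus strand, position -142): ctcaagtgtTTCTGAGAAtctgggtga
WARS (chr14:100375385-100375411, minus strand, position -55): ttcagaaggGAAACTGAAagaaagagg
The core GAAANNGAA, searched on both strands, was found in 3 cytosolic (GARS, IARS and WARS) and 1 mitochondrial gene (EARS2), beside 9.86% of all genes with a window and 8.11% of single windows. TTCNNNGAA, which reads the same on both strands, was found in 3 cytosolic (CARS, TARS and WARS) and 2 mitochondrial genes (PARS2 and WARS2), beside 9.38% of all genes with a window and 7.66% of single windows. None of the matches to the motifs shared a base within a gene.

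The mitochondrial synthetases work with partners that complete tRNA charging and translation in the organelle. Of 16 such partners, 11 fell and 2 rose with GFI1 in attached cells, and in floating cells 11 fell. That was 68.8% lower in each, and 12.5% higher in attached cells. Of the genes at or above the lowest synthetase's level, 41.8% and 39.3% fell and 31.8% and 32.5% rose. The medians of the partners were -0.29 and -0.30. The initiation factor MTIF2 had log2 fold changes of -0.72 ± 0.058 (SE) and -0.82 ± 0.059, the elongation factor TUFM of -0.47 ± 0.041 and -0.45 ± 0.042, and the mRNA-binding protein LRPPRC of -0.49 ± 0.042 and -0.45 ± 0.042. Glutamine has no mitochondrial synthetase in this family, since EARS2 loads glutamate and an amidotransferase of QRSL1, GATB and GATC converts it. EARS2 fell with GFI1 by 0.21 in attached and 0.34 in floating cells on the log2 scale, QRSL1 by 0.71 and 0.60, and GATC by 0.38 and 0.27. GATB had -0.069 ± 0.090 in attached cells and fell by 0.42 in floating cells, and the difference did not pass (-0.35, adjusted p = 0.0810). MTFMT, which formylates the methionine that MARS2 loads for initiation, fell by 0.48 in each state, beside falls of 0.72 and 0.62 for MARS2 itself. Suspension went with 7 falls and 3 rises among the partners in control cells and 7 falls in GFI1 cells. That was 43.8% lower and 18.8% higher beside 29.2% and 24.1% of the genes at that level, and 43.8% lower beside 23.9%. Of the partners 1 had a lower interaction value, or 6.25% beside 8.60%.

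Other parts of the translation machinery were counted in the same comparisons. Of 77 mitochondrial ribosomal protein genes tested, 58 fell in attached and 57 in floating cells with GFI1 (medians -0.31 and -0.34), and 2 rose in each. That was 75.3% and 74.0% lower, and 2.60% higher in each. Of the genes at or above the lowest synthetase's level, 41.8% and 39.3% fell and 31.8% and 32.5% rose. Of 78 cytosolic ribosomal protein genes, 77 or 98.7% fell in each state (medians -0.46 and -0.56). With suspension, the cytosolic ribosomal proteins had 8 falls and 3 rises in control cells (median -0.0055). That was 10.3% lower and 3.85% higher, beside 29.2% and 24.1% of the genes at or above the lowest synthetase's level. In GFI1 cells they had 19 falls and 1 rise (median -0.084), or 24.4% and 1.28% beside 23.9% and 19.1%. The cytosolic synthetases had 14 and 12 falls of 21. The mitochondrial ribosomal proteins had 37 and 40 falls, and 1 and 2 rises (medians -0.16 and -0.19). That was 48.1% and 51.9% lower and 1.30% and 2.60% higher. In the interaction, 4 of the cytosolic ribosomal proteins had a lower value, and of the mitochondrial ones 1 had a higher and 2 a lower value. The lower values were 5.13% and 2.60% and the higher one 1.30%, beside 8.60% lower and 6.87% higher of the genes at that level. Of 14 cytosolic translation factors tested, 12 fell and 1 rose with GFI1 in attached cells and 10 fell and 3 rose in floating cells (medians -0.30 and -0.24). That was 85.7% lower and 7.14% higher in attached and 71.4% and 21.4% in floating cells. Among them EEF1B2 fell by 0.61 and 0.55 on the log2 scale, while EEF1A2, an elongation factor isoform, rose by 0.92 and 0.89. The factors had 11 falls with suspension in control cells, 8 falls and 1 rise in GFI1 cells, and 2 higher interaction values. These were 78.6% lower in control cells, 57.1% lower and 7.14% higher in GFI1 cells, and 14.3% higher in the interaction. Of 8 genes of tRNA export, editing and modification, 5 fell in each state and 3 rose in attached and 2 in floating cells. That was 62.5% lower in each, and 37.5% and 25.0% higher. The pseudouridine synthases PUS1 and PUS7 fell by 0.75 and 0.63 in attached cells, and SEPSECS, which makes selenocysteine on its tRNA, rose by 0.89. This last list had 5 falls and 2 rises with suspension in control cells, 3 falls in GFI1 cells, and 1 higher interaction value, that of the tRNA exporter XPOT (0.22 ± 0.067, adjusted p = 0.0375). The shares were 62.5% lower and 25.0% higher in control cells, 37.5% lower in GFI1 cells and 12.5% higher in the interaction.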

How the data were processed

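Poly(A)-selected mRNA from total RNA of A549 cells was sequenced on an Illumina NovaSeq system. The deposited values are raw counts of reads per gene with a gene length, which the authors made, per the study's methods, with Hisat2 and featureCounts, whereas the submitters' processing notes name Bowtie2 and HTSeq and the hg38 build. The annotation release and strand setting are not given in the sources used here. All 12 count columns were matched to labelled samples. Genes were kept by edgeR's filterByExpr (minimum count 10, total 15), scaled by TMM and tested with edgeR's quasi-likelihood test (edgeR 4.0.16, R 4.3.3) in a fit over all 4 groups, with Benjamini-Hochberg adjustment over 17829 genes at 0.05. SE is the absolute log2 fold change divided by the square root of F. CPM per kb is TMM-scaled CPM divided by the deposited gene length, and log levels used a prior count of 2. Libraries held 17014188 to 20748677 counts, and the biological coefficient of variation between replicates was 4.86%. The test was checked on simulated counts. DESeq2 1.42.0, other scalings and filters, a replicate block and leaving out each library were the alternatives. The deviations of libraries with the same replicate number correlated at -0.0162 to 0.00889, so no shared signal was seen. This cannot show whether those libraries were prepared together, and they were not paired in the main fit. The chi-square per gene between replicates was 2.01 to 11.9, so none was a duplicate. It was highest within the floating GFI1 group, at 5.01, 4.84 and 11.9, beside at most 3.76 in the other groups.

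The synthetases and the gene lists (ATF4 targets, interferon gamma genes, complex scaffolds, mitochondrial partners, translation factors, tRNA export and modification, ribosomal proteins, A549 and other-cell markers) were chosen with earlier results of these data known. Per-library values are given for up to 4 called synthetases at each end of each comparison and for WARS, GARS, KARS and TARSL2, and up to 3 list genes per direction by lowest adjusted p. QRSL1, GATB, GATC, MTFMT, ATF4, DDIT3, XPOT and the complex scaffolds were named for their role. KRT8, CDKN2A, CD3E, DCN, CDH5, VWF, CD14 and PECAM1 were named as markers. Of 9 epithelial and A549 markers, 6 fell and 2 rose with GFI1 in attached cells, and 7 fell and 1 rose in floating cells. That was 66.7% lower and 22.2% higher in attached and 77.8% and 11.1% in floating cells. Of the genes at or above the lowest synthetase's level, 41.8% and 39.3% fell and 31.8% and 32.5% rose. Of the 3 other-cell markers tested, 2 rose in each state and 1 fell in floating cells. Overlaps with neighbouring genes were taken from GENCODE v44, and promoter windows from RefSeq. The values of 1 synthetase, which stays in the counts, sums and medians, are not reported here or drawn in the plots of single genes.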

Additional observations from a re-analysis of the deposited data

Results flagged for a closer look

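The effect of GFI1 differed between floating and attached cells for 3 synthetases by the interaction term of edgeR's quasi-likelihood test. AARS had a difference of 0.33 ± 0.072 on the log2 scale (SE, adjusted p = 0.00312), with the effect nearer to 0 in floating cells. MARS had 0.25 ± 0.059 (SE, adjusted p = 0.0055) in the same direction. FARSB had -0.25 ± 0.068 (SE, adjusted p = 0.0151), with the larger fall in floating cells, and its adjusted p was 0.0516 without attached control replicate 3 and 0.0605 with no low-count filter. By comparison, 4.76% of all genes tested had a higher and 6.01% a lower value.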

How the results depend on the processing

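For GFI1 and for suspension, the counts of synthetases that fell stayed within 1.5 times under DESeq2, other scalings, other count filters, fits of only the groups compared and each left-out library. A fold of at least 1.5 as a further condition left 7 cytosolic and 3 mitochondrial falls with GFI1 in attached cells, 3 and 4 in floating cells with 0 rises, 0 calls of either direction with suspension in control or GFI1 cells, and 0 in the interaction. Scaling by library size alone moved the median of all genes to 0.14 in both GFI1 comparisons and the share of calls that were higher from 47.4% to 61.5% with GFI1 in attached cells, and in floating cells from 48.5% to 61.3%. Under it, 17 cytosolic and 7 mitochondrial genes fell in attached cells and 17 and 8 in floating cells, 2 cytosolic genes rose in each state, and the values of HARS in attached cells (0.13) and WARS in floating cells (0.10) turned upward and passed, while WARS no longer fell in attached cells. DESeq2, and likewise no low-count filter, left 1 cytosolic rise with suspension in GFI1 cells, and no low-count filter left 0 lower interaction values (FARSB). The cause was not tested. Without each library in turn, the cytosolic rises ranged over 0 to 1 with GFI1 in floating cells, 1 to 2 with suspension in control cells and 0 to 2 in GFI1 cells, the mitochondrial rise in control cells over 0 to 1, and the interaction calls over 2 to 4 higher and 0 to 1 lower. Of 104 calls, 14 were lost without at least 1 library. Whether libraries with the same replicate number were prepared together is not known. With the replicate block 189 of 190 results kept their direction and side of the threshold. The other 1 passed newly, giving 13 cytosolic falls with suspension in GFI1 cells in place of 12. The gap between cytosolic and mitochondrial levels moved by less than its SD without each library in turn, an alternative added after seeing the data. At these depths the lowest synthetase counts (SARS2, PARS2, WARS2 and FARS2) went with some of the widest SEs.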
